A study of Mus musculus with 24 samples.

Results

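The genes described here are 40 of the 284 mouse probes on the Steroltalk V2 array. Among the 212 probes ranked, they had the lowest response to pregnenolone 16alpha-carbonitrile (PCN) in the liver of wild type mice. PCN, a steroid made in the laboratory, is a ligand of rodent PXR, the pregnane X receptor. A probe entered the ranking when it was above background on at least 3 of the 6 wild type arrays, which 229 probes were. A set of 17 probe numbers had been dropped, which left 212 to rank. With none dropped, 34 of the 40 would have been among the 40 lowest. The value ranked was the mean over 6 wild type arrays of the log2 ratio of background-subtracted signal, PCN-treated over vehicle, centred on the median of each array. Every statement on wild type is therefore a description of the values that chose the probes, and carries no test. The ranking used no array of the 3 deficient genotypes. The 17 numbers were dropped with earlier results of these data known, so those genotypes may have shaped the list through them. The platform annotation gives a gene symbol for 17 of the 40, and the other 23 are called by their probe ID.

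The study set PCN-treated liver RNA (Cy5) against 1 pool of vehicle-treated liver RNA of the same genotype (Cy3), on 6 arrays for each of 4 genotypes. All mice were male C57BL/6J, aged 9 to 12 weeks, and the livers were taken 12 h after an intraperitoneal injection of PCN at 40 mg/kg or of vehicle, 5% DMSO in corn oil. The genotypes were wild type, CAR deficient, PXR deficient and CAR/PXR deficient (CAR-/-, PXR-/- and CAR/PXR-/- in the design text), where CAR is the constitutive androstane receptor. The labels give no further detail of the alleles and name no other agent. The labels state that RNA of 6 replicates was pooled, without saying in which channel, and the spread that p-values rest on is that of arrays, which may be technical. Each genotype had 1 vehicle pool, and the variation of animals given vehicle enters no test. PCN-treated RNA was Cy5 on every array. Within a genotype, a dye effect of a probe therefore cannot be told apart from a response to PCN.

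PXR and CAR are nuclear receptors of the hepatocyte that bind foreign compounds and raise genes of drug uptake, oxidation, conjugation and export. Ligand-activated PXR is also known to lower genes of glucose production and of the inflammatory response in liver, without always binding their DNA itself. Genes that fall after PCN in wild type can thus be followed into livers that lack PXR, CAR or both.

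Some arrays and signals stood apart. Between 158 and 243 mouse probes were seen above background on an array, and 236 probes were tested, all 40 members among them. PXR-deficient replicate 2 was high, with a median log2 ratio over mouse probes of 1.22 when centred on control probes, against a median of -0.13 over the 24 arrays. On CAR-deficient replicate 2 the fewest probes were seen, and the most spots were flagged, 27.4%. Cy5 background was 0 on CAR/PXR-deficient replicates 5 and 6. Over the tested probes, CAR/PXR-deficient arrays correlated negatively with CAR-deficient arrays (median r = -0.36) and with PXR-deficient arrays (median r = -0.51), and the direction given by the labels was kept. The probes for Nr1i2 (PXR) and Nr1i3 (CAR) had Cy3 levels of 7.83 and 8.20 for Nr1i2 in PXR-deficient and CAR/PXR-deficient pools against 7.49 in wild type, and of 7.59 and 7.69 for Nr1i3 in CAR-deficient and CAR/PXR-deficient pools against 7.94. Where these probes lie relative to the deleted parts is not given in the sources used here, so they check nothing about the genotypes. Of 5 hepatocyte markers 2 were on the array, and the bright one, Apoa1, had Cy3 levels from 12.73 to 13.19 over the genotypes. No named probe was found for the markers of leukocytes, endothelium, stellate cells or bile duct. In whole liver, fewer cells of a type and less RNA per cell cannot be told apart.

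The members lay close to zero, at the lower edge of the continuous distribution of the ranked probes. Some of the dropped probes lay lower than most members, among them ST_Mm_280 at -0.73, ST_Mm_289 at -0.72 and ST_Mm_258 at -0.61. The lowest wild type value was -0.83 ± 0.32 (SD, n = 6) at ST_Mm_216, followed by -0.73 ± 0.15 (SD, n = 6) at ST_Mm_265. The last member, ST_Mm_248, had a mean of -0.3046 and the first probe outside, ST_Mm_259, a mean of -0.3044. On either side of that edge, Cyp24a1 stood at -0.31 and ST_Mm_240 at -0.30. When each wild type array was left out of the choice in turn, 33 to 36 of the 40 were chosen again. On the array left out, 31 to 39 of the 40 newly chosen probes were below 0, and it shared its vehicle pool with the arrays that chose.

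The members were dim probes, and the size of their fall moved with the normalization. Their median brightness in wild type was 7.81 (mean log2 intensity of both channels) against 8.73 for the other 196 tested probes, and 62.5% of members were under 8 against 31.1% of the others. The median wild type log2 ratio of the members was -0.38 on the scale that chose them and -0.26 after normexp background correction with median centring. After normexp and loess, which removes the dependence of the ratio on brightness, it was -0.18, and 25 of the 40 would have been chosen on that scale. All log2 ratios and tests below are on the normexp and loess scale, where a ratio below 0 means less signal after PCN than in the vehicle pool. The part of brightness in the fall was not tested.

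**Figure D1:**
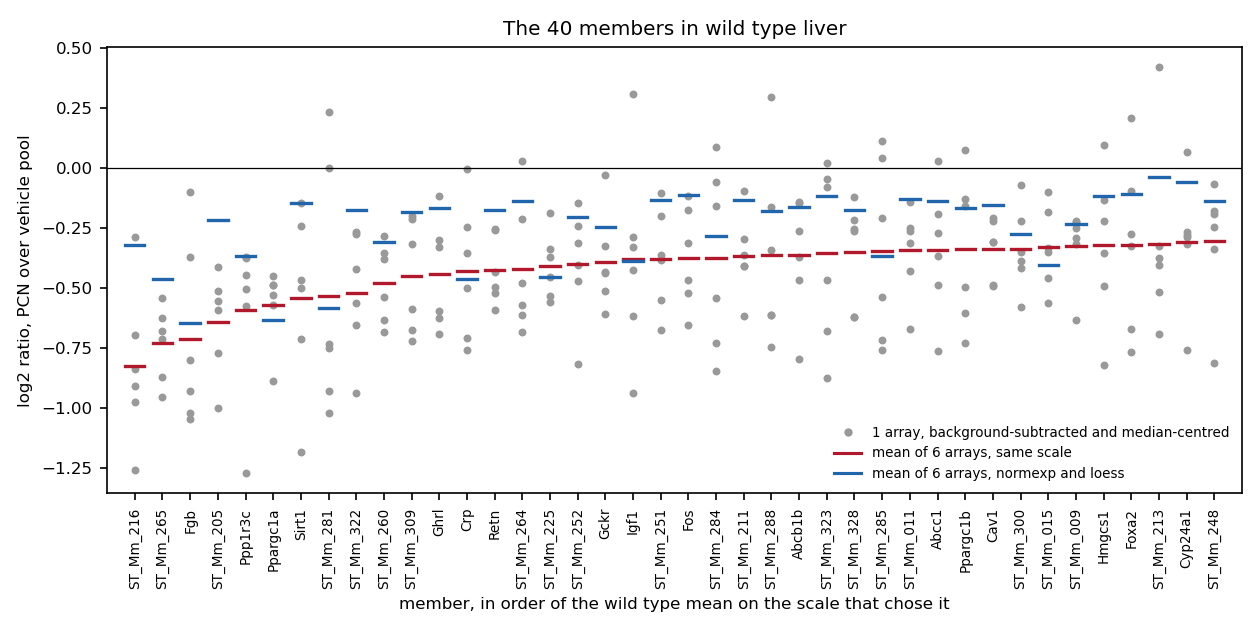
The 40 members in wild type liver, in order of their mean on the scale that chose them, with the log2 ratio of PCN over vehicle pool on the vertical axis. Grey points are the 6 arrays and the red line their mean on the background-subtracted, median-centred scale, and the blue line is the mean after normexp and loess. The blue line lies below the red one at Ppargc1a, ST_Mm_281, Crp, ST_Mm_225, Igf1, ST_Mm_285 and ST_Mm_015, and above it at the other members.

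In the deficient genotypes the members spread to both sides of 0. The median log2 ratio of the 40 was -0.18 for wild type, -0.10 for CAR-deficient, -0.05 for PXR-deficient and -0.03 for CAR/PXR-deficient livers, where all 236 tested probes had medians of -0.00, -0.01, -0.03 and 0.04. The wild type value is lowest by the choice of the members. The order of the deficient genotypes depended on loess. After normexp with median centring the medians were -0.17 for CAR-deficient, -0.07 for PXR-deficient and -0.16 for CAR/PXR-deficient livers. Members below 0 numbered 40, 32, 26 and 22 of 40 in the same order, and 50.4%, 51.7%, 55.9% and 39.4% of all tested probes were below 0. By array, the median ran from -0.17 to 0.01 without CAR, from -0.13 to 0.14 without PXR and from -0.10 to 0.01 without both. The highest of these, 0.14, was on PXR-deficient replicate 2, without which the PXR-deficient median was -0.08.

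A call here is a limma adjusted p under 0.05 over the 236 probes. In CAR-deficient livers 9 members were called lower, where 10.2% of all tested probes were, and 0 higher, where 6.78% were. In that genotype 14 members had an unadjusted p under 0.05. In PXR-deficient livers 9 were called lower and 4 higher, where 19.5% of tested probes were called in each direction. In CAR/PXR-deficient livers 8 were called lower and 8 higher, against 11.9% and 10.6% of tested probes. The shares of members called lower were thus 22.5%, 22.5% and 20%, and the one for PXR-deficient livers is close to that of all tested probes. In wild type 24 of the 40 were past the same threshold downwards and 0 upwards, against 16.5% and 21.2% of tested probes, from which nothing is read. Ppargc1a, Fos and ST_Mm_015 were called lower in all 3 deficient genotypes. For a fall shared by all genotypes, a dye effect of the probe and a response to PCN cannot be told apart.

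**Figure D2:**
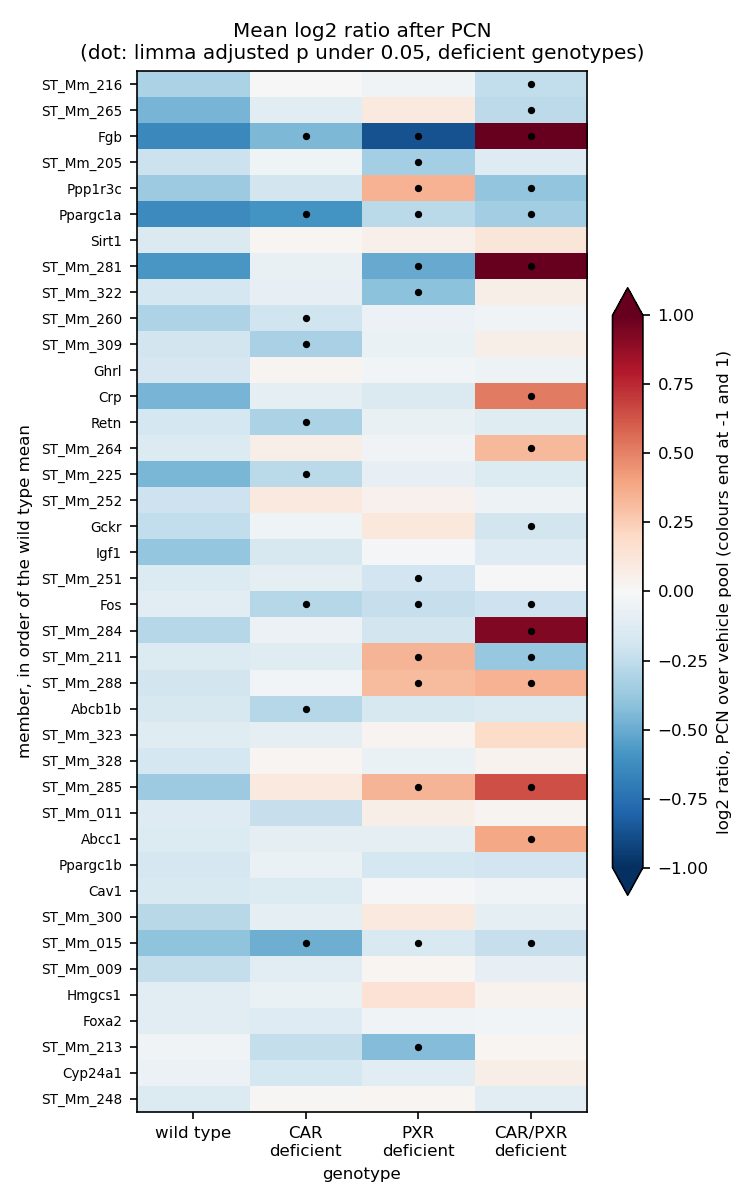
Mean log2 ratio of PCN over vehicle pool for each of the 40 members (rows, in wild type order) in each genotype (columns, n = 6 arrays each), with blue for lower and red for higher values and a dot for each call in a deficient genotype. The CAR/PXR-deficient column holds the darkest red cells, Fgb at 1.64 and ST_Mm_281 at 1.88 (both past the end of the colours), and Ppargc1a is blue in every column.

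Ppargc1a encodes PGC-1alpha, a transcriptional coactivator that fasting signals raise through CREB and that drives genes of glucose production and mitochondria. Its promoter is shown with that of Fos, the other named member called lower in each deficient genotype, because both hold the half-site of the element that CREB binds. Fos encodes an immediate-early transcription factor, a subunit of AP-1. The letters TGACG were searched on both strands, and the match is in capitals, in Ppargc1a as the reverse complement. The 150 bases before the start of each gene are given in the direction of the gene (RefSeq, GRCm38.p6, Ppargc1a at chr5:51567726-51567875 on the minus strand, Fos at chr12:85473740-85473889 on the plus strand).
Ppargc1a: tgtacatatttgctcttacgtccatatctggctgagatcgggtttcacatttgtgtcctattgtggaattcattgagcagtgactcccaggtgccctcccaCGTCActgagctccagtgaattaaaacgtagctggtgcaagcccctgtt
Fos: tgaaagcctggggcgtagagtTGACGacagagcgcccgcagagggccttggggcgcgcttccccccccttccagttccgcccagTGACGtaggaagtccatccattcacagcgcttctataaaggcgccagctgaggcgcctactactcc
The match begins 49 bases before the start in Ppargc1a, and 129 and 66 bases before it in Fos. These letters were found in the 250 bases before the start of 17.8% of all 32851 genes' windows and of 5 of the 14 member genes with a window, Crp, Fos, Hmgcs1, Ppargc1a and Sirt1. A match describes the letters of this window, not a site in use.

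Ppargc1a had less signal after PCN than in the vehicle pool in all 3 deficient genotypes. Its wild type log2 ratio ran over the 6 arrays from -0.91 through a median of -0.60 to -0.45, with a mean of -0.63 ± 0.17 (SD, n = 6). In CAR-deficient livers it ran from -0.89 through -0.59 to -0.31, below 0 on 6 of 6 arrays. The range overlapped that of wild type. The mean there was -0.60 ± 0.21 (SD, n = 6), 1.51-fold lower than the vehicle pool (limma, adjusted p = 5.70e-06). In PXR-deficient livers the values ran from -0.51 through -0.31 to 0.23, the last on replicate 2. The mean was -0.27 ± 0.27 (SD, n = 6), 1.21-fold lower (limma, adjusted p = 0.0113). Without both receptors they ran from -0.55 through -0.34 to -0.12, with a mean of -0.35 ± 0.18 (SD, n = 6), 1.28-fold lower (limma, adjusted p = 0.00211). Without replicates 5 and 6 this fall did not pass (-0.25, adjusted p = 0.106).

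The difference of Ppargc1a between CAR-deficient and PXR-deficient livers passed the test narrowly, the former minus the latter being -0.32 ± 0.12 (SE; 95% interval -0.56 to -0.08; limma, adjusted p = 0.0388). The difference did not pass the test without PXR-deficient replicate 2 (-0.22, adjusted p = 0.127), nor without any of PXR-deficient replicates 1 and 3 or CAR-deficient replicates 1, 2, 4 and 5 (-0.33 to -0.26, adjusted p from 0.0567 to 0.0878). It was also lost with the replicate number as a block (adjusted p = 0.0569), with genotypes fitted apart (adjusted p = 0.0887), with array weights (-0.18, adjusted p = 0.142), with the median over spots (-0.27, adjusted p = 0.0866), and with centring on the median (-0.33, adjusted p = 0.136) or on control probes (-0.56, adjusted p = 0.0812) in place of loess. In all, 13 of 36 alternatives ended the call. Between PXR-deficient and CAR/PXR-deficient livers it was 0.08 (95% interval -0.16 to 0.32) and did not pass the test. Cy3 levels of the pools were 10.38 in wild type, 10.28, 10.25 and 10.54 in the deficient genotypes in the same order. A second Ppargc1a probe, ST_Mm_320, was among the numbers dropped by the rule. It gave -0.71 ± 0.22 with both receptors, -0.67 ± 0.30 without CAR (limma, adjusted p = 8.49e-05), -0.25 ± 0.40 without PXR (adjusted p = 0.0838) and -0.38 ± 0.24 without either (adjusted p = 0.0132; SD, n = 6 each). The order of the genotypes was the same at both probes, and the call in PXR-deficient livers was made at 1 of the 2. After median centring without loess, the first probe was called in CAR-deficient livers and not in PXR-deficient (-0.21, adjusted p = 0.121) or CAR/PXR-deficient livers (-0.22, adjusted p = 0.0903). With genotypes fitted apart it was not called in PXR-deficient livers (adjusted p = 0.0589).

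Fos, a dim probe, was called lower in all 3 deficient genotypes. Its log2 ratio ran from -0.23 through -0.17 to 0.09 in wild type, with a mean of -0.11 ± 0.14 (SD, n = 6). In CAR-deficient livers it ran from -0.50 through -0.25 to -0.12, with a mean of -0.28 ± 0.16 (SD, n = 6), 1.22-fold lower (limma, adjusted p = 0.00127). In PXR-deficient livers it ran from -0.37 through -0.21 to -0.12, with a mean of -0.23 ± 0.10 (SD, n = 6; adjusted p = 0.00391). All arrays of these genotypes were below 0. In CAR/PXR-deficient livers the mean was -0.20 ± 0.16 (SD, n = 6; limma, adjusted p = 0.013), and 1 array was at 0.00. That call was lost without replicate 4 (-0.17, adjusted p = 0.0652) or replicate 6 (-0.17, adjusted p = 0.0710). With centring on control probes in place of loess, none of the 3 falls passed (-0.51, -0.21 and -0.46, adjusted p = 0.0519, 0.523 and 0.0619). Differences between the deficient genotypes were between -0.08 and -0.03, and none passed the test. The probe was seen on 5, 4, 4 and 5 of the 6 arrays, in wild type, CAR-deficient, PXR-deficient and CAR/PXR-deficient livers.

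Other regulators among the members did not pass the test in any deficient genotype. Ppargc1b, the close relative of Ppargc1a, stood at -0.17 ± 0.25 on the log2 ratio in wild type, and at -0.06 ± 0.21, -0.18 ± 0.21 and -0.19 ± 0.25 in CAR-deficient, PXR-deficient and CAR/PXR-deficient livers (SD, n = 6 each). For CAR/PXR-deficient livers the 95% interval was -0.38 to -0.01 (limma, adjusted p = 0.127). Sirt1, a deacetylase that acts on PGC-1alpha, was seen on 3, 2, 3 and 2 of 6 arrays, and its means were -0.14 in wild type, 0.02 without CAR and 0.05 without PXR. Its Cy3 signal was not above background on any CAR/PXR-deficient array, and no value is given there. Foxa2, a transcription factor of the hepatocyte, had means of -0.11, -0.13, -0.03 and -0.03 in the same order.

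Ppargc1a belongs to a list of 4 genes of glucose production, of which 3 genes with 4 tested probes were on the array. In CAR-deficient livers 2 of the 4 probes were called lower, both for Ppargc1a, and 0 higher. In PXR-deficient livers G6pc, the glucose-6-phosphatase that releases glucose, was called higher at 0.65 (limma, adjusted p = 0.00140), and 1 Ppargc1a probe lower. In CAR/PXR-deficient livers both Ppargc1a probes were called lower and Foxo1 higher, at 0.21 (limma, adjusted p = 0.00488). G6pc, one of the dropped numbers, had a log2 ratio of -0.22 in wild type. Every probe of this list called lower in a deficient genotype was one of Ppargc1a.

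Ppp1r3c and Gckr act in glucose storage and use. Ppp1r3c encodes a subunit that targets protein phosphatase 1 to glycogen, and Gckr the protein that holds glucokinase in the nucleus of the hepatocyte. The log2 ratio of Ppp1r3c ran in wild type from -1.04 through -0.24 to -0.11, the lowest on replicate 2, with a mean of -0.37 ± 0.34 (SD, n = 6). In CAR-deficient livers it ran from -0.43 through -0.19 to 0.10, with a mean of -0.19 ± 0.17 (SD, n = 6; limma, adjusted p = 0.172). In PXR-deficient livers all 6 arrays were above 0, from 0.15 through 0.35 to 0.51. The mean of 0.35 ± 0.14 (SD, n = 6) was 1.27-fold higher than the pool (limma, adjusted p = 0.00571). Without both receptors all 6 arrays were below 0, from -0.90 through -0.33 to -0.08, with a mean of -0.39 ± 0.28 (SD, n = 6), 1.31-fold lower (limma, adjusted p = 0.00244).

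The PXR-deficient arrays of Ppp1r3c did not overlap those of the other deficient genotypes. PXR-deficient minus CAR/PXR-deficient was 0.74 ± 0.13 (SE; 95% interval 0.47 to 1.02; limma, adjusted p = 9.76e-05), a difference called under every alternative that was run. CAR-deficient minus PXR-deficient was -0.54 ± 0.13 (SE; limma, adjusted p = 0.0057), and it did not pass after background subtraction with median centring (-0.84, adjusted p = 0.126) or in the authors' value table (-0.50, adjusted p = 0.206). The Cy3 level moved with the sign, at 7.35 for the pool without PXR and 8.32 for the pool without both, while Cy5 levels after PCN were 7.69 and 7.92. The part of the pools in the difference was not tested. The rise in PXR-deficient livers did not pass the test after background subtraction with median centring (0.47, adjusted p = 0.209), with centring on control probes (0.43, adjusted p = 0.104) or in the authors' value table (0.36, adjusted p = 0.138). The fall in CAR/PXR-deficient livers did not pass without replicates 5 and 6 (-0.30, adjusted p = 0.0661).

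Gckr was also highest in PXR-deficient livers, at a smaller size. Its mean log2 ratio was -0.25 ± 0.18 in wild type, -0.04 ± 0.09 without CAR, 0.11 ± 0.14 without PXR and -0.18 ± 0.07 without both (SD, n = 6 each). Only the last of the deficient genotypes was called (limma, adjusted p = 0.0143), with values from -0.32 through -0.16 to -0.12. Without CAR/PXR-deficient replicate 6 that call was lost (-0.16, adjusted p = 0.0771), and so it was without replicates 5 and 6 (-0.16, adjusted p = 0.144). The call was also lost with median centring (-0.16, adjusted p = 0.0711) or centring on control probes (-0.26, adjusted p = 0.184). In the authors' value table the fall did not pass either (-0.14, adjusted p = 0.271). PXR-deficient minus CAR/PXR-deficient was 0.29 ± 0.08 (SE; limma, adjusted p = 0.00441), and the CAR/PXR-deficient arrays lay below all PXR-deficient ones. Under median centring that difference was 0.21 (adjusted p = 0.0741). Nor did it pass with centring on control probes (0.43, adjusted p = 0.105) or in the authors' value table (0.28, adjusted p = 0.0887). The probe ST_Mm_211 stood at 0.34 ± 0.11 in PXR-deficient (limma, adjusted p = 6.15e-05) and -0.38 ± 0.16 in CAR/PXR-deficient livers (SD, n = 6 each; adjusted p = 9.77e-06). Their difference was 0.72 ± 0.08 (SE; limma, adjusted p = 6.33e-08), and all 3 of these results for ST_Mm_211 were called under every alternative that was run.

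**Figure D3:**
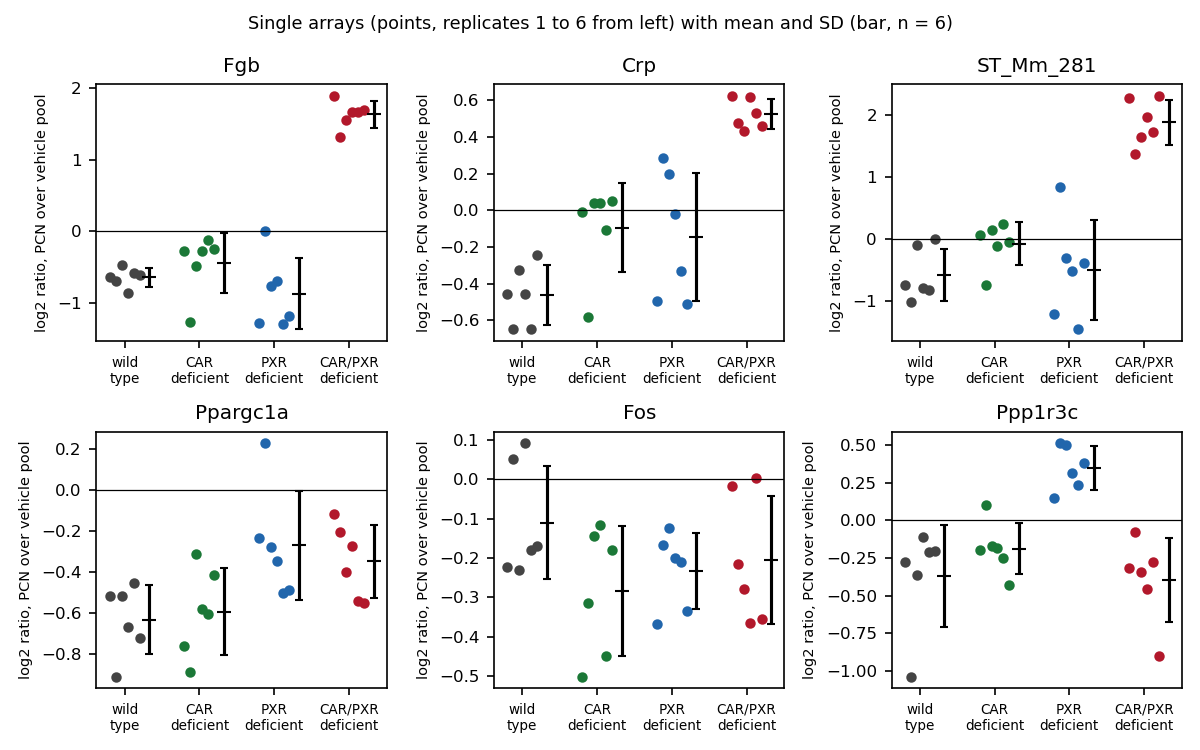
Log2 ratio of PCN over vehicle pool on every array for 6 members, by genotype, with the mean and SD (n = 6) as a bar to the right of the points. Fgb, Crp and ST_Mm_281 stand above 0 on all CAR/PXR-deficient arrays, Ppp1r3c stands above 0 on all PXR-deficient arrays and below 0 on all CAR/PXR-deficient arrays, and Ppargc1a is below 0 on all but 1 of the 24 arrays.

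Fgb and Crp encode plasma proteins of the acute phase that the hepatocyte secretes, the beta chain of fibrinogen and C-reactive protein. In liver they are induced through interleukin-6 and STAT3, more weakly for Crp in mouse. Both were lower after PCN in wild type and higher in CAR/PXR-deficient livers. Their promoters are shown as the 2 named members that rose there by the largest measured amounts. In Fgb the capitals mark CTGGGAA, the core of an interleukin-6 response element, and in Crp they mark TGACG, each searched on both strands (RefSeq, GRCm38.p6, 150 bases before the start in the direction of the gene, Fgb at chr3:83049864-83050013 on the minus strand, Crp at chr1:172697906-172698055 on the plus strand).
Fgb: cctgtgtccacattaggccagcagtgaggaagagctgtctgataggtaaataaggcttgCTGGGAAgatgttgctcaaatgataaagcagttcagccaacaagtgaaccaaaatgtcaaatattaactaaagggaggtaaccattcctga
Crp: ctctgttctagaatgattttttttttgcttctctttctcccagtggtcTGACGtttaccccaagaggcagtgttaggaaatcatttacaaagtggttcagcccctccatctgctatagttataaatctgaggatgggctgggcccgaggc
The match begins 91 bases before the start in Fgb and 102 bases before it in Crp. CTGGGAA was found in the 250 bases before the start in 9.10% of all windows, counted by window. Counted by gene, with a match in any window, it was found in 4 of 14 member genes, Cav1, Fgb, Hmgcs1 and Igf1. It was not found in Crp, where TGACG, the half-site shown for Ppargc1a and Fos, is marked instead.

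Fgb, a bright probe, fell in PXR-deficient livers and rose in CAR/PXR-deficient livers. A fall in CAR-deficient livers was called on the main scale and lost under several alternatives. Its log2 ratio in wild type ran from -0.87 through -0.63 to -0.47, with a mean of -0.64 ± 0.13 (SD, n = 6). In CAR-deficient livers it ran from -1.27 through -0.28 to -0.13, below 0 on 6 of 6 arrays. The mean of -0.45 ± 0.42 (SD, n = 6) passed the test (limma, adjusted p = 0.0159), and without replicate 2, which held the lowest value, it was -0.28 and did not (adjusted p = 0.119). Nor did it pass after background subtraction (-0.37, adjusted p = 0.215) or normexp (-0.37, adjusted p = 0.235), each with median centring. It was also lost with centring on control probes (-0.48, adjusted p = 0.208) and with genotypes fitted apart (adjusted p = 0.0690). In PXR-deficient livers it ran from -1.30 through -0.98 to 0.00, the last on replicate 2, with a mean of -0.87 ± 0.50 (SD, n = 6), 1.83-fold lower (limma, adjusted p = 1.71e-05). With centring on control probes in place of loess that fall was -0.51 and did not pass (adjusted p = 0.184). Without both receptors it ran from 1.32 through 1.67 to 1.89, all above every array of the other deficient genotypes. The mean of 1.64 ± 0.19 (SD, n = 6) was a 3.11-fold rise (limma, adjusted p = 1.38e-10).

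The difference of Fgb from CAR/PXR-deficient livers was -2.08 (95% interval -2.46 to -1.70; limma, adjusted p = 8.41e-10) for CAR-deficient and -2.51 (95% interval -2.89 to -2.13; adjusted p = 2.01e-11) for PXR-deficient livers. Between CAR-deficient and PXR-deficient livers it was 0.43 (95% interval 0.05 to 0.81; limma, adjusted p = 0.0740). Both channels moved. The Cy3 level of the vehicle pool was 12.49 ± 0.48 in wild type, 12.29 ± 0.50 without CAR, 13.10 ± 0.44 without PXR and 11.73 ± 0.28 without both (SD over 6 arrays of 1 pool). The Cy5 level after PCN was 11.84 ± 0.43, 11.84 ± 0.56, 12.22 ± 0.43 and 13.36 ± 0.31 in the same order. With the dye direction of the labels, the CAR/PXR-deficient pool was the lowest and the treated signal the highest of the 4 genotypes, and with the dyes exchanged on those arrays this order would turn. With 1 pool per genotype, a trait of the pooled animals and the effect of the missing receptors cannot be told apart.

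Crp followed with a smaller change. Its wild type log2 ratio ran from -0.65 through -0.45 to -0.24, with a mean of -0.46 ± 0.16 (SD, n = 6). In CAR-deficient livers it ran from -0.58 through 0.01 to 0.05, with a mean of -0.09 ± 0.24 (SD, n = 6; limma, adjusted p = 0.514), the lowest on replicate 2. In PXR-deficient livers it ran from -0.51 through -0.18 to 0.29, with a mean of -0.14 ± 0.35 (SD, n = 6; limma, adjusted p = 0.203). These values overlapped both zero and the wild type range. With neither receptor it ran from 0.43 through 0.50 to 0.62, above all arrays of the other deficient genotypes. The mean was 0.52 ± 0.08 (SD, n = 6), a 1.44-fold rise (limma, adjusted p = 5.88e-05) called under every alternative that was run. CAR-deficient minus CAR/PXR-deficient was -0.62 (limma, adjusted p = 0.000644) and PXR-deficient minus CAR/PXR-deficient -0.67 (adjusted p = 0.000172). With centring on control probes these differences did not pass (adjusted p = 0.0911 and 0.226). The Cy3 level was 10.22 in CAR/PXR-deficient and 10.23 in CAR-deficient pools, against 10.98 in wild type and 10.84 in PXR-deficient pools.

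Of the members that rose in CAR/PXR-deficient livers 5 are unnamed, and they are printed by ID because of their values. ST_Mm_281 had a log2 ratio of -0.58 ± 0.42 in wild type, -0.07 ± 0.35 without CAR and -0.51 ± 0.81 without PXR (SD, n = 6 each). In CAR/PXR-deficient livers it ran from 1.38 through 1.85 to 2.31, with a mean of 1.88 ± 0.37 (SD, n = 6), a 3.69-fold rise (limma, adjusted p = 1.92e-08). The call in PXR-deficient livers (limma, adjusted p = 0.0397) was lost in 5 of the 6 cases in which 1 PXR-deficient array was left out, with values from -0.55 to -0.32, the exception being replicate 2, which stood at 0.83. The Cy3 level of ST_Mm_281 was 9.12 ± 0.13 in the CAR/PXR-deficient pool (SD over 6 arrays), against 10.41 in the wild type pool and 10.58 and 10.56 in those without CAR or PXR, and Cy5 was 11.00 against 9.83, 10.51 and 10.05.

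ST_Mm_284, a bright probe, had a log2 ratio of -0.28 in wild type, -0.06 without CAR, -0.18 without PXR and 0.93 ± 0.40 (SD, n = 6) without both, a 1.90-fold rise (limma, adjusted p = 6.88e-08). Its arrays there ran from 0.59 through 0.83 to 1.68. ST_Mm_285 rose in PXR-deficient livers, at 0.34 ± 0.30 (SD, n = 6; limma, adjusted p = 0.00807), and in CAR/PXR-deficient livers, at 0.64 ± 0.17 (SD, n = 6; adjusted p = 9.39e-06), against -0.36 ± 0.33 in wild type. Without PXR-deficient replicate 2 the former was 0.24 (adjusted p = 0.0599). ST_Mm_288 rose in the same genotypes, at 0.31 ± 0.25 and 0.35 ± 0.16 (SD, n = 6 each; limma, adjusted p = 0.00438 and 0.00208). The highest of its PXR-deficient values, 0.83, was on replicate 2. Without CAR/PXR-deficient replicates 5 and 6 its rise there was 0.29 (adjusted p = 0.0549). With centring on control probes neither rise of ST_Mm_288 passed (0.36 and 0.13, adjusted p = 0.165 and 0.561). The probe is dim, with a brightness of 7.30 in wild type.

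**Figure D4:**
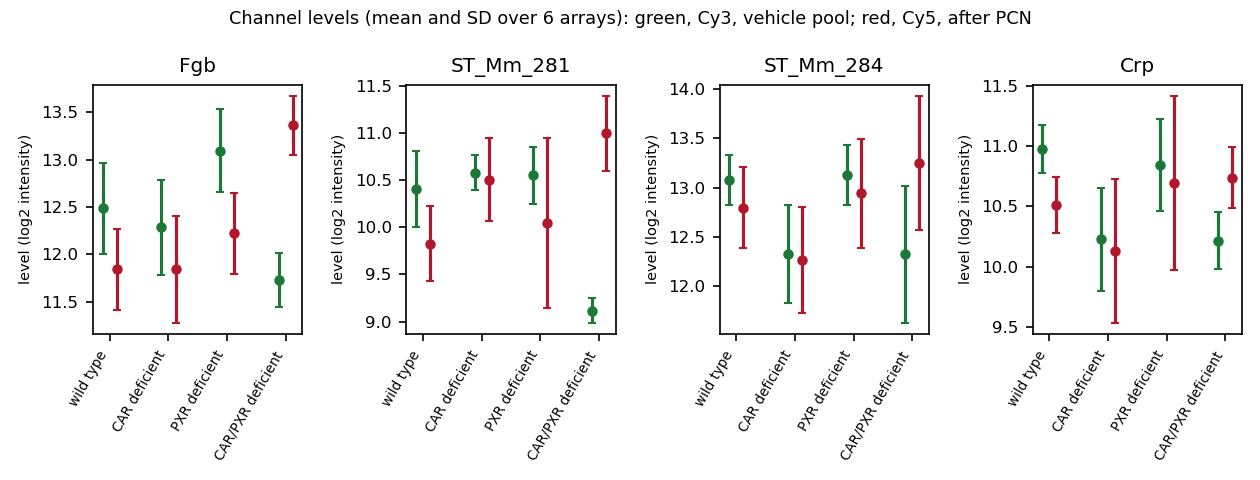
Levels (log2 intensity, mean and SD over 6 arrays) of Fgb, ST_Mm_281, ST_Mm_284 and Crp in the vehicle pool (Cy3, green) and after PCN (Cy5, red) in each genotype. With neither receptor the red point stands above the green one for all 4 probes, from a pool level of 9.12 for ST_Mm_281 and of 11.73 for Fgb.

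The members that encode circulating hormones were Igf1, Ghrl and Retn. Igf1, the growth factor that growth hormone raises in liver, had a wild type log2 ratio from -0.97 through -0.42 to 0.24, with a mean of -0.39 ± 0.39 (SD, n = 6). It was -0.16 ± 0.20 without CAR, -0.01 ± 0.17 without PXR and -0.13 ± 0.21 without both (SD, n = 6 each), and none passed the test. For PXR-deficient livers the 95% interval was -0.21 to 0.19. Retn (resistin, in mouse a product of fat tissue) was lower in CAR-deficient livers on 6 of 6 arrays, from -0.57 through -0.26 to -0.21, with a mean of -0.32 ± 0.14 (SD, n = 6; limma, adjusted p = 0.00103). Its Cy3 signal was above background there on 3 of 6 arrays and its Cy5 signal on 1, so the size of the fall is uncertain. Ghrl (ghrelin, a hormone of the stomach) was -0.17 ± 0.09 (SD, n = 6) in wild type, 0.02 without CAR and -0.03 without PXR, and its Cy3 signal was not above background on any CAR/PXR-deficient array, so that no value is given there.

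Retn differed between CAR-deficient and PXR-deficient livers by -0.24 ± 0.09 (SE; limma, adjusted p = 0.0489). The difference did not pass in 29 of 35 alternatives, among them the 1 without PXR-deficient replicate 2 (-0.16, adjusted p = 0.153).

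Abcb1b and Abcc1 encode export pumps, P-glycoprotein and MRP1, that carry drugs and conjugates out of cells. Abcb1b fell in CAR-deficient livers on 6 of 6 arrays, from -0.61 through -0.20 to -0.09, with a mean of -0.29 ± 0.23 (SD, n = 6; limma, adjusted p = 0.00689). The call was lost with genotypes fitted apart (-0.29, adjusted p = 0.0533) and in the authors' value table (-0.29, adjusted p = 0.0859). It was -0.16 in wild type, -0.16 without PXR and -0.14 without both, and the differences between deficient genotypes were between -0.14 and -0.02 and did not pass. Abcc1 was above 0 on all CAR/PXR-deficient arrays, at Cy5 and Cy3 levels of 7.35 and 6.96 (log2 intensity). Its Cy3 signal was not above background on any of them, so that the rise was at least 1.01-fold. That bound is the mean of Cy5 against a floor. The floor is the mean over arrays of the lowest Cy3 signal above background or the probe's own signal, whichever was higher. The adjusted p of 0.00142 (limma) is that of the loess ratio and not of the bound. In place of loess, the rise did not pass with median centring (adjusted p = 0.241) or with centring on control probes (adjusted p = 0.825). In wild type, CAR-deficient and PXR-deficient livers Abcc1 had log2 ratios of -0.14, -0.10 and -0.09. The unnamed ST_Mm_264 also rose there from a pool not above background, by at least 1.18-fold. The adjusted p of 0.00173 (limma) is again that of the loess ratio. Its rise did not pass without CAR/PXR-deficient replicates 5 and 6 (adjusted p = 0.0982). In place of loess, it did not pass with median centring (adjusted p = 0.0652) or with centring on control probes (adjusted p = 0.723).

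The remaining named members serve lipid and vitamin metabolism and the cell membrane. Hmgcs1, a synthase at the start of cholesterol synthesis, had log2 ratios of -0.11, -0.06, 0.15 and 0.04 in wild type, CAR-deficient, PXR-deficient and CAR/PXR-deficient livers, with no call in a deficient genotype. It is the only member among the 11 tested probes of a list of cholesterol synthesis genes. Of these 11, 2 were called lower and 0 higher in CAR-deficient livers, 3 lower and 2 higher in PXR-deficient livers, and 0 lower and 1 higher in CAR/PXR-deficient livers. Ebp, which isomerises a late sterol intermediate, was called lower in CAR-deficient (-0.34) and PXR-deficient livers (-0.49), and Fdft1, the squalene synthase, lower in the former (-0.31) and higher in the latter (0.27). Cav1, a coat protein of caveolae, had log2 ratios of -0.15, -0.14, -0.01 and -0.03, with no call in a deficient genotype. Cyp24a1, which breaks down active vitamin D, was not above background in Cy3 on any wild type array, and in neither channel on any CAR/PXR-deficient array, so that no fold is given.

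ST_Mm_015 was the member with the largest change in CAR-deficient livers after Ppargc1a. Its log2 ratio ran in wild type from -0.58 through -0.49 to -0.14, with a mean of -0.41 ± 0.20 (SD, n = 6). In CAR-deficient livers it ran from -0.70 through -0.43 to -0.32, with a mean of -0.48 ± 0.16 (SD, n = 6), 1.40-fold lower (limma, adjusted p = 1.13e-06). In CAR/PXR-deficient livers the mean was -0.23 ± 0.07 (SD, n = 6; limma, adjusted p = 0.00489), and -0.20 (adjusted p = 0.0966) without replicates 5 and 6. In PXR-deficient livers it was -0.16 ± 0.13 (SD, n = 6; limma, adjusted p = 0.0449), a call lost in 15 of 36 alternatives and turned to 0.039 with centring on control probes. CAR-deficient minus PXR-deficient was -0.33 ± 0.09 (SE; limma, adjusted p = 0.0079).

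The 2 members lowest in wild type on the scale that chose them were called lower in CAR/PXR-deficient livers alone of the deficient genotypes. ST_Mm_216 was -0.32 ± 0.20 in wild type on the loess scale, 0.00 ± 0.15 without CAR, -0.04 ± 0.07 without PXR and -0.24 ± 0.15 without both (SD, n = 6 each; limma, adjusted p = 0.00375 for the last). It was above background on 4, 3, 3 and 4 of 6 arrays. ST_Mm_265 was -0.46 ± 0.09, -0.11 ± 0.14, 0.10 ± 0.30 and -0.26 ± 0.27 in the same order (SD, n = 6 each; limma, adjusted p = 0.0258 for the last). That call was lost without CAR/PXR-deficient replicates 3, 5 or 6 left out singly (-0.25 to -0.17, adjusted p from 0.0684 to 0.203). Among the other unnamed members, ST_Mm_322 and ST_Mm_213 fell in PXR-deficient livers on 6 of 6 arrays, by 0.41 ± 0.05 and 0.43 ± 0.08 (SD, n = 6 each; limma, adjusted p = 1e-06 and 0.00037). With centring on control probes neither fall passed (adjusted p = 0.254 and 0.203). The Cy5 signal of ST_Mm_322 was above background there on 2 of 6 arrays, so the size of its fall is uncertain.

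The other 12 unnamed members had small values. In CAR-deficient livers ST_Mm_260 fell by 0.20, ST_Mm_309 by 0.33 and ST_Mm_225 by 0.27 (limma, adjusted p = 0.0316, 0.00332 and 0.0244). The Cy5 signal of ST_Mm_309 was above background there on 2 of 6 arrays. Replicate 1 held the lowest value of ST_Mm_309 there, -0.99, and the other 5 arrays ran up to -0.09. Without replicate 1 the fall was -0.19 and passed (limma, adjusted p = 0.0147), and with genotypes fitted apart (adjusted p = 0.0978) or in the authors' value table (-0.23, adjusted p = 0.154) it did not pass. The call of ST_Mm_225 was lost without CAR-deficient replicate 1 or 2 (-0.23 and -0.21, adjusted p = 0.115 and 0.119), and that of ST_Mm_260 without CAR-deficient replicate 1, 2, 4 or 5 (-0.21 to -0.14, adjusted p from 0.0518 to 0.172). In PXR-deficient livers ST_Mm_205 fell by 0.34 and ST_Mm_251 by 0.19 (limma, adjusted p = 4.03e-05 and 0.00632), both on 6 of 6 arrays. With centring on control probes neither passed (adjusted p = 0.499 and 0.733), and ST_Mm_205 did not pass with background subtraction (adjusted p = 0.374) or in the authors' value table (adjusted p = 0.151). No deficient genotype was called at ST_Mm_252, ST_Mm_323, ST_Mm_328, ST_Mm_011, ST_Mm_300, ST_Mm_009 or ST_Mm_248, whose means lay between -0.23 and 0.19.

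Fgb and ST_Mm_281 had the largest differences between deficient genotypes among the 40, both against CAR/PXR-deficient livers. CAR-deficient and PXR-deficient livers differed at 8 members, 6 of them lower in CAR-deficient livers (14.4% of all tested probes were) and 2 higher (18.2% of tested probes). CAR-deficient and CAR/PXR-deficient livers differed at 12, 10 lower in the former (11.4% of tested probes) and 2 higher (11% of tested probes). PXR-deficient and CAR/PXR-deficient livers differed at 14, 10 lower in the former (24.2% of tested probes) and 4 higher (17.4% of tested probes). The size of these contrasts comes from no wild type array, and a dye effect equal on all arrays of a probe cancels in them. Wild type arrays do enter the spread behind their p-values. The Retn difference stayed at -0.24 but did not pass when wild type replicate 1, 3, 4, 5 or 6 was left out (limma, adjusted p from 0.0503 to 0.0537). Without PXR-deficient replicate 2 the counts were 7, 13 and 13, without CAR-deficient replicate 2 they were 7, 10 and 14, and without CAR/PXR-deficient replicates 5 and 6 they were 8, 8 and 11. Without CAR/PXR-deficient replicates 5 and 6, the members called lower in that genotype also dropped from 8 to 3. The shares of all tested probes called with these arrays left out are not given, so nothing is read from these changes.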

How the data were processed

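Per the file headers, the deposited scanner tables hold the foreground and background intensity of both channels for 1440 spots per array, the percent of pixels above background by 2 SD and a flag score per spot. Scanner software is not given in the sources used here. The authors also deposited a table of log2 ratios per probe, whose method is not stated. Its slope against the background-subtracted scanner ratios was positive on all 24 arrays (0.40 to 0.92), its column medians ran from -0.33 to 0.16, and its centring is unknown. It was an alternative only.

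Foreground medians were corrected with normexp (offset 50, limma 3.58.1, R 4.3.3). The default fit failed on 1 channel, Cy5 of CAR/PXR-deficient replicate 6 (background mean 3230.28, above the median signal of 436.5), and was replaced by direct maximum likelihood. Global loess (span 0.3, 4 iterations, weight on unflagged mouse spots) and the mean of 3 spots per member followed. A spot counted as above background with over 50% of its pixels so in either channel, and a probe with 50% or more of its spots. Probes above background on 50% or more of the 6 arrays in any genotype were tested. A single limma fit, 1 coefficient for each genotype, gave every adjusted p (Benjamini-Hochberg over 236 probes). Levels are after loess and Aquantile. The model was tested on simulated data. Precision is limited by how many arrays there are.

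The members, the gene lists and the rule for naming them were chosen with earlier results of these data known. By that rule members are named by gene where the platform annotation has a symbol, which it has for 147 of the 284 mouse probes. All 40 members are described, and how fully each unnamed one is given was decided after its values were seen. No probe had several symbols. Of the 17 named members, 14 genes had a promoter window in the RefSeq table. Other lists gave, as probes called lower and higher among those tested in CAR-deficient, PXR-deficient and CAR/PXR-deficient livers, 1 and 3, 1 and 1, and 2 and 1 of 7 for targets of PXR and CAR. They gave 2 and 0, 2 and 2, and 0 and 1 of 6 for bile acid genes. They gave 0 and 0, 0 and 0, and 0 and 1 of 4 for circadian genes, and 0 and 0, 0 and 1, and 0 and 0 of 4 for receptors. None of these holds a member.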

Additional observations from a re-analysis of the deposited data

Results flagged for a closer look

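In 26 of 164 groups of 6 arrays, an array stood apart from the other 5 on the log2 ratio of a member or on the median of the members, where chance gives about 1 in 20, or 8.2. On CAR-deficient replicate 2, Fgb was at -1.27, ST_Mm_281 at -0.74 and Crp at -0.58, each the lowest of its group. On CAR-deficient replicate 1, Ghrl was at -0.20, Abcc1 at -0.74, ST_Mm_309 at -0.99, ST_Mm_213 at -0.94, ST_Mm_323 at -0.62 and ST_Mm_251 at -0.36. On PXR-deficient replicate 2, the median of the members was 0.14, Ppargc1a was at 0.23, ST_Mm_288 at 0.83, ST_Mm_225 at 0.51, ST_Mm_252 at 0.43 and ST_Mm_260 at 0.27, each the highest of its group. On PXR-deficient replicate 3, ST_Mm_309 was at 0.14 and ST_Mm_213 at -0.58. In CAR/PXR-deficient livers, ST_Mm_284 was at 1.68 and Foxa2 at -0.52 on replicate 1, ST_Mm_211 at -0.081 and ST_Mm_251 at 0.26 on replicate 5, and Gckr at -0.32 and ST_Mm_011 at 0.56 on replicate 6. In wild type, Ppp1r3c was at -1.04 on replicate 2, Ghrl at 0.0051 on replicate 1 and ST_Mm_213 at 0.32 on replicate 5. The cause of none of these was tested.

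Between deficient genotypes, 34 differences of the 40 members passed the test (limma, adjusted p under 0.05). CAR-deficient minus PXR-deficient was -0.54 for Ppp1r3c, -0.32 for Ppargc1a, -0.24 for Retn, -0.46 for ST_Mm_211, -0.34 for ST_Mm_288 and -0.33 for ST_Mm_015, and it was 0.33 for ST_Mm_322 and 0.30 for ST_Mm_205. CAR-deficient minus CAR/PXR-deficient was -2.08 for Fgb, -1.96 for ST_Mm_281, -0.62 for Crp, -0.99 for ST_Mm_284, -0.37 for ST_Mm_288, -0.54 for ST_Mm_285, -0.48 for Abcc1, -0.38 for ST_Mm_309, -0.27 for ST_Mm_323 and -0.25 for ST_Mm_015, and it was 0.25 for ST_Mm_216 and 0.26 for ST_Mm_211. PXR-deficient minus CAR/PXR-deficient was -2.51 for Fgb, -2.39 for ST_Mm_281, -0.67 for Crp, -1.11 for ST_Mm_284, -0.48 for Abcc1, -0.46 for ST_Mm_322, -0.45 for ST_Mm_213, -0.36 for ST_Mm_264, -0.21 for ST_Mm_205 and -0.19 for ST_Mm_251, and it was 0.36 for ST_Mm_265, 0.74 for Ppp1r3c, 0.29 for Gckr and 0.72 for ST_Mm_211. For Abcc1, ST_Mm_264, ST_Mm_322 and ST_Mm_213, Cy3 was not above background on any CAR/PXR-deficient array, so that their differences from that genotype have no exact size. Those of Abcc1 did not pass with median centring (adjusted p = 0.181 from CAR-deficient and 0.0920 from PXR-deficient livers) or with centring on control probes (adjusted p = 0.583 and 0.758).

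Leaving out a single array ended 11 of the 34 calls, Ppargc1a and Retn among them. From CAR-deficient to CAR/PXR-deficient livers, ST_Mm_216 was lost without CAR-deficient replicate 1, 2 or 6 or CAR/PXR-deficient replicate 1, 3, 4 or 6 (0.19 to 0.26, adjusted p from 0.0548 to 0.130), and also with the replicate number as a block (adjusted p = 0.0744) and with no filter on dim probes (adjusted p = 0.0523), in 14 of 35 alternatives in all. ST_Mm_015 was lost there without CAR-deficient replicate 1 or 2 or CAR/PXR-deficient replicate 1, 2 or 3 (-0.25 to -0.21, adjusted p up to 0.0934). ST_Mm_211 was lost without CAR-deficient replicate 3 or CAR/PXR-deficient replicate 3 or 6 (0.20 to 0.23, adjusted p up to 0.0623). ST_Mm_288 was lost without CAR-deficient replicate 2 or CAR/PXR-deficient replicate 6 (-0.34 and -0.32, adjusted p up to 0.0603). ST_Mm_323 was lost in 21 of 35 alternatives, 11 of them without 1 array, and was -0.17 without CAR-deficient replicate 1 (adjusted p = 0.138). From CAR-deficient to PXR-deficient livers, ST_Mm_288 was lost without CAR-deficient replicate 2 or 4 or PXR-deficient replicate 2 (-0.32 to -0.24, adjusted p up to 0.0954). From PXR-deficient to CAR/PXR-deficient livers, ST_Mm_265 was lost without PXR-deficient replicate 2 or CAR/PXR-deficient replicate 6 (0.25 and 0.27, adjusted p up to 0.0650). ST_Mm_205 was lost there without PXR-deficient replicate 2, 3 or 4 or CAR/PXR-deficient replicate 1, 2 or 4 (-0.20 to -0.18, adjusted p up to 0.0707), and ST_Mm_251 without PXR-deficient replicate 1, 3, 4 or 6 or CAR/PXR-deficient replicate 1 or 5 (-0.19 to -0.14, adjusted p up to 0.117).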

How the results depend on the processing

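Of 72 called results of the 40 members, 17 stayed past the threshold in the same direction under every alternative run and 52 without each array in turn, and 55 were lost under at least 1 alternative. With centring on control probes ST_Mm_015 in PXR-deficient livers turned to 0.039, and PXR-deficient minus CAR/PXR-deficient turned to 0.21 for ST_Mm_205 and to 0.13 for ST_Mm_251. That of ST_Mm_205 was also 1.17 with background subtraction and 0.37 in the authors' value table. The centring on control probes shifted the median of all tested probes by -0.20 with both receptors, -0.14 without CAR, 0.097 without PXR and -0.15 without either. It left 3 members lower in CAR-deficient, 0 lower and 2 higher in PXR-deficient, and 2 lower and 5 higher in CAR/PXR-deficient livers, with 3 members differing between CAR-deficient and PXR-deficient, 3 between CAR-deficient and CAR/PXR-deficient, and 4 between PXR-deficient and CAR/PXR-deficient livers. Among probes seen on every array the same counts were 5, 4, 1, 3, 5, 2, 6 and 5, where fewer members were tested. Background subtraction with median centring gave 17 members lower in CAR/PXR-deficient livers, against 8 higher, and 4 and 7 differing between CAR-deficient and PXR-deficient or CAR/PXR-deficient livers. Normexp with median centring gave 4, 6 and 7 in the 3 differences, and 9 lower against 6 higher in CAR/PXR-deficient livers. The authors' value table gave 5 lower in CAR-deficient livers, and 5 and 7 in the first 2 differences. Genotypes fitted apart gave 4 lower in CAR-deficient livers, array weights 15 lower in PXR-deficient livers, and leaving out CAR/PXR-deficient replicates 5 and 6 gave 3 lower there. The 40 lowest on the loess scale gave 12 higher in PXR-deficient livers and 14 members differing between CAR-deficient and PXR-deficient livers. The median of the members was -0.38, -0.42, -0.26 and -0.27 in wild type with background subtraction, control centring, median centring and the choice on the loess scale. It was -0.25, -0.28 and -0.17 in CAR-deficient livers with the first 3 of these, and -0.25, -0.26, -0.16 and -0.088 in CAR/PXR-deficient livers with all 4, and -0.11 there in the authors' value table. In PXR-deficient livers it was -0.13, 0.049 and -0.070 with the first 3. With these 3 the CAR/PXR-deficient median was about as low as the CAR-deficient one, and only the PXR-deficient one was nearer 0. The cause of these shifts was not tested. For the counts of members in this section, the share of all tested probes called under the same alternative is not given. They therefore do not show whether a change concerns the members or all probes alike.

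Leaving out 1 array at a time, also from the choice of members, gave 7 to 11 members lower and 0 higher in CAR-deficient livers, 7 to 10 and 3 to 6 in PXR-deficient livers, and 5 to 9 and 7 to 10 in CAR/PXR-deficient livers. Members that differed numbered 5 to 11 between CAR-deficient and PXR-deficient, 8 to 14 between CAR-deficient and CAR/PXR-deficient, and 12 to 17 between PXR-deficient and CAR/PXR-deficient livers. The median of the members ran from -0.22 to -0.17 with both receptors, from -0.13 to -0.086 without CAR, from -0.076 to -0.030 without PXR and from -0.061 to -0.025 without both.

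With the replicate number as a block, 9 members were lower in CAR-deficient livers, 8 lower and 4 higher in PXR-deficient, and 8 and 8 in CAR/PXR-deficient livers, with 7, 10 and 12 in the 3 differences. The numbers did not pair the arrays: same-numbered arrays had a median correlation of deviations of -0.009, 8 of 36 pairs were over 0.1, and 1 of 24 arrays correlated best with its own number. Slide and scan as blocks were not run, since none is given in the files used here. Dim signal limits most members, 62.5% of which were under a log2 brightness of 8.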
